A study of Homo sapiens with 2 samples.

Results

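The AP-1 and EGR1 immediate early factors were examined in a list of PRMT5 binding regions from MDA-MB-231, a cell line long established from a human breast cancer. A region counted for a gene when any base of it lay within 10 kb of the hg19 span of FOSL1, JUN, FOS, JUNB, JUND, ATF3 or EGR1. Of 2840 peaks in the list, 7 met this rule, at 3 of the 7 genes, while 1.58% of genome windows of like size held a peak. These genes were proposed with results of this list in view, and the windows include gene-poor and unassembled stretches. The comparison is therefore a description and no test. FOSL1 had 4 peaks, JUN had 2 and JUNB had 1, whereas FOS, JUND, ATF3 and EGR1 had none. Of the 7 peaks, 6 lay over or just past the end of 1 of these genes, and none touched the start of one. Counting peaks within 1 kb of each other as 1 region left 4 regions. They lay at the ends of FOSL1, JUN and JUNB and before the FOSL1 start. FOSL1 had 3 of the 6 peaks, on a side where a neighbouring gene lies whose overlap with them was not determined. The same division by position was not made for other genes.

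The study comprised 2 samples of untreated MDA-MB-231 cells. The first was chromatin crosslinked with formaldehyde, sonicated and precipitated with a PRMT5 antibody, and the second was input DNA taken without antibody. Each had 1 library, so replicate error could not be estimated for any value, and the input was not analysed here. PRMT5 is an arginine methyltransferase that works in a complex with WDR77 and methylates histones and other proteins.

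AP-1 is a family of dimeric transcription factors built from FOS, JUN and ATF proteins, which pair through a leucine zipper and bind DNA through an adjoining basic region. Several of their genes, like EGR1, are immediate early genes: growth factors and stress switch on their transcription within minutes, without new protein synthesis, and their transcripts are usually short-lived. In breast cancer cells of the basal, mesenchymal type to which MDA-MB-231 belongs, FOSL1 (the protein FRA-1) is known as an abundant FOS partner of the JUN proteins.

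Each peak carries a score, taken as the −log10 of the peak caller's q-value, which is the authors' own value and serves here only to rank peaks within the list. Positions are hg19, counted from 1, and distances follow the direction of transcription. Over the whole list the median score was 7.80, the upper quartile was 12.4 and the median width was 210 bp.

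FOSL1, on chromosome 11 at 65659607 to 65668044 on the minus strand, had the strongest and widest of the 7 peaks. This peak ran from 65658218 to 65659756, a width of 1539 bp, and scored 43.6, which placed it 41st in the list by score and 20th by width. It covered the last 150 bases of the gene and ended 1389 bp past it, so that 9.75% of the peak lay in FOSL1. Measured from the FOSL1 start, the peak lay 8288 to 9826 bp downstream. In the whole list 55 peaks were wider than 1 kb, and of the 7 peaks this was the only one.

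Further peaks followed it downstream of FOSL1. The next, from 65657609 to 65658056, began 1551 bp past the gene end, was 448 bp wide and scored 11.2. The third, from 65656564 to 65656952, began 2655 bp past the end, was 389 bp wide and scored 2.97, the lowest score of the 7, with 4.75% of the list scoring lower. Scores therefore fell with distance from the gene end, from 43.6 to 11.2 to 2.97. The gaps between these peaks were 161 and 656 bp, and together they spanned 3193 bp.

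The stretch past the end of FOSL1 is not empty of other genes. In the RefSeq gene order on GRCh38, the next protein-coding gene on that side is CCDC85B, which is transcribed towards FOSL1. Its hg19 position was not used here, so how many of the bases past the FOSL1 end belong to CCDC85B was not determined, and these peaks cannot be assigned to FOSL1 rather than to its neighbour.

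On the other side of FOSL1 lay a single narrow peak, the only one of the 7 that preceded a gene. It ran from 65670745 to 65670900, ended 2701 bp before the first base of the gene, was 156 bp wide and scored 8.69. Only 18.9% of the list was narrower. The body of FOSL1, from its start to the last 150 bases, held no peak, so 1.78% of the gene was covered.

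JUN, the founding JUN family member and the usual partner of FOS proteins, lies on chromosome 1 at 59246463 to 59249785 on the minus strand and had a pair of peaks at its end. The first ran from 59246278 to 59246988, was 711 bp wide and scored 7.71, close to the median of the list. It covered the last 526 bases of the gene and 185 bp beyond, so 74.0% of this peak lay in JUN, against 9.75% of the peak over the end of FOSL1. The second ran from 59245323 to 59246124, began 339 bp past the gene end, was 802 bp wide and scored 26.5, above 94.4% of the list. JUN is 3323 bp long, and from its start the pair lay 2797 to 3507 bp and 3661 to 4462 bp downstream.

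At JUN the order of scores was thus the reverse of that at FOSL1, with the stronger peak lying wholly outside the gene. The gap between the pair was 153 bp, and together they spanned 1666 bp. Peaks covered 15.8% of the JUN gene, all of it at the end, and the region within 10 kb before its start held none. The next protein-coding gene past the end of JUN in the RefSeq order is MYSM1.

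JUNB, a JUN family member that can act against JUN at some promoters, lies on chromosome 19 at 12902310 to 12904125 on the plus strand and had 1 peak. It ran from 12904255 to 12904634, began 130 bp past the last base of the gene, was 380 bp wide and scored 9.76, above 64.0% of the list. JUNB is 1816 bp long, so the same peak lay 1945 to 2324 bp downstream of the gene start. None of the peak's bases lay in the gene. It was the only peak between 12 and 13 Mb on that chromosome. The next protein-coding gene past the end of JUNB in the RefSeq order is PRDX2.

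**Figure D1:**
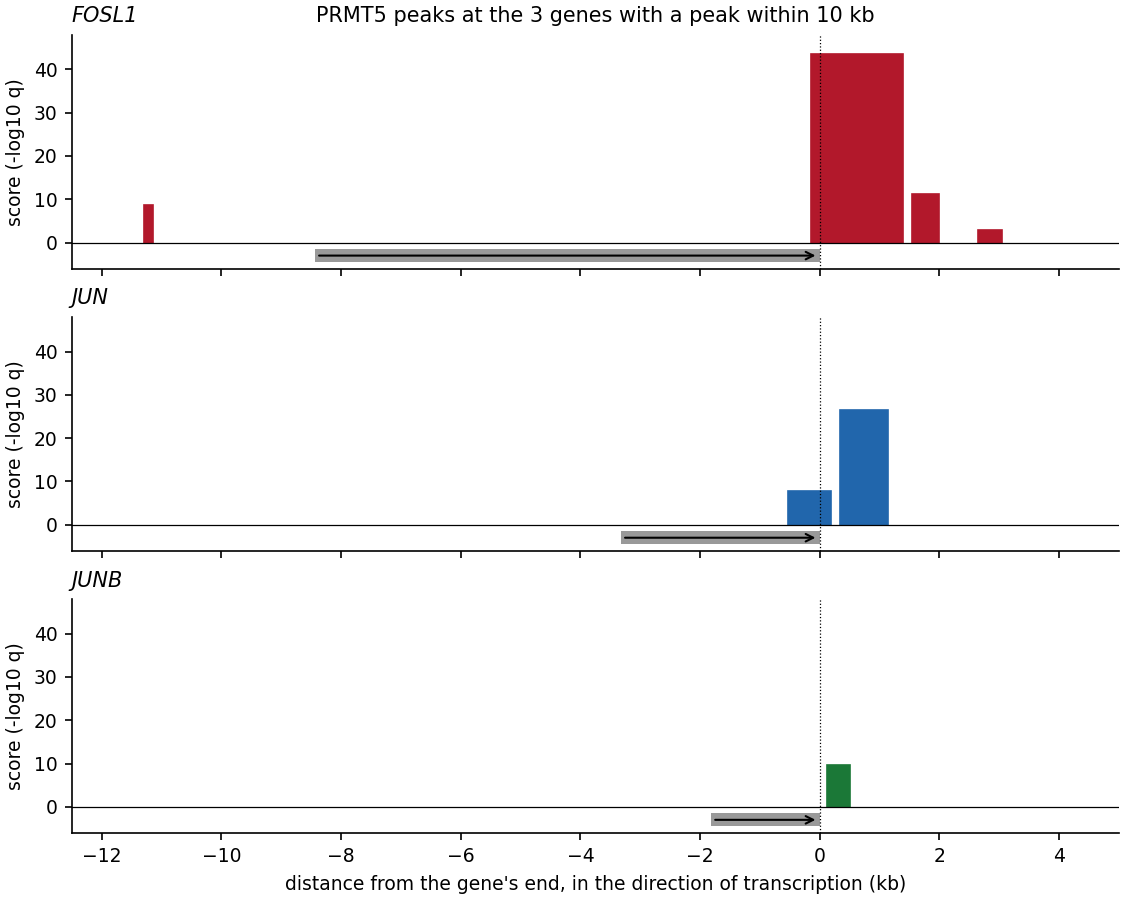
Peaks at FOSL1, JUN and JUNB, aligned at the last base of each gene (dotted line at 0). The x axis is the distance from the gene end in the direction of transcription, in kb, each coloured bar spans 1 peak and is as high as its score (−log10 q), and the grey bar with an arrow is the gene. The peaks gather at or within about 3 kb past the end, the strongest being the 43.6 of FOSL1, and the single peak before a start is that of FOSL1 at 8.69. CCDC85B, the next coding gene past the FOSL1 end, is not drawn. How far the peaks at that end overlap it was not determined.

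No peak touched the starts of these genes, and the sequences there are shown for JUN and JUNB as the promoters that stayed without a peak beside a peak at the other end of the gene. They are the 250 bases before the start in RefSeq on GRCh38.p14, read 5′ to 3′ on the strand of the gene. The JUN stretch is chr1:58784048-58784297 on the minus strand, and the JUNB stretch is chr19:12791236-12791485 on the plus strand. Capitals mark matches to any of the motifs searched.
JUN: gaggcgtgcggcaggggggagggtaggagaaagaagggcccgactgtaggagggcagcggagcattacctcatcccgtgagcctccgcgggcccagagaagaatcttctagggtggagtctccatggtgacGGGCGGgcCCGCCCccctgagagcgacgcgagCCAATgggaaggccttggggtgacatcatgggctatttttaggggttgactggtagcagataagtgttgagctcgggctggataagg
JUNB: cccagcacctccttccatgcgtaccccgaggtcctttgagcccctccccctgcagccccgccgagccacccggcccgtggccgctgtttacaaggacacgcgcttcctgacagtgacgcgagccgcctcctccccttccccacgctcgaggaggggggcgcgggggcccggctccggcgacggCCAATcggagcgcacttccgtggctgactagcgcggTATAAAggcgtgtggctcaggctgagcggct

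Both strands were searched for TGANTCA, bound by AP-1, for TGACGTCA, the cyclic AMP response element, and for CCAAT, bound by NF-Y. The other motifs were GGGCGG, known as the Sp1 site, TATAAA of core promoters, GCGGGGGCG, bound by EGR1, and the CArG box of serum response factor. The JUN stretch holds CCAAT beginning 87 bp before the start and Sp1 sites on opposite strands beginning 119 and 111 bp before it. The JUNB stretch holds CCAAT beginning 67 bp and TATAAA beginning 31 bp before the start. No match in either stretch overlaps another, and the exact letters of the AP-1, cyclic AMP, EGR1 and CArG motifs are not in these windows. Mismatches were not allowed, so near matches were not counted. The JUN stretch holds tgacatca, for example, which differs from TGACGTCA by a single letter. Of 35116 RefSeq promoter stretches of the same length, 32.0% hold CCAAT, 42.6% the Sp1 site, 10.7% TATAAA, 6.57% the AP-1 motif, 1.65% the cyclic AMP element, 4.72% the EGR1 motif and 1.16% the CArG box. These matches describe the letters only. The RefSeq start on GRCh38 may differ from the hg19 start used for the peaks, and no coordinate was carried between builds.

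Among the genes without a peak, EGR1, a zinc finger factor of the early growth response family, had the nearest one. On chromosome 5 at 137801181 to 137805004, plus strand, its closest peak lay 199 kb past the end, with a score of 7.28. FOS, the prototype immediate early gene, lies on chromosome 14 at 75745481 to 75748937, plus strand, and its closest peak lay 658 kb before the start, with a score of 5.40. ATF3, a stress-induced member of the ATF family, spans 55444 bp on chromosome 1 at 212738676 to 212794119, plus strand. Its closest peak lay 929 kb before the start and scored 4.85.

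JUND, the JUN member that is expressed more steadily and depends less on stimulation, lies on chromosome 19 at 18390563 to 18392432, minus strand. Its closest peak lay 1403 kb past the end and scored 10.96. The 1 Mb windows that hold the starts of the JUND, ATF3 and EGR1 spans contained no peak. ATF3 has the longest span of the 7 and therefore had the most room for a peak: windows of its search length held one in 4.44% of cases, against 1.48 to 1.88% for the other genes. The depth of the library is unknown from a peak list, so the absence of a peak at a gene does not show the absence of PRMT5 there.

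**Figure D2:**
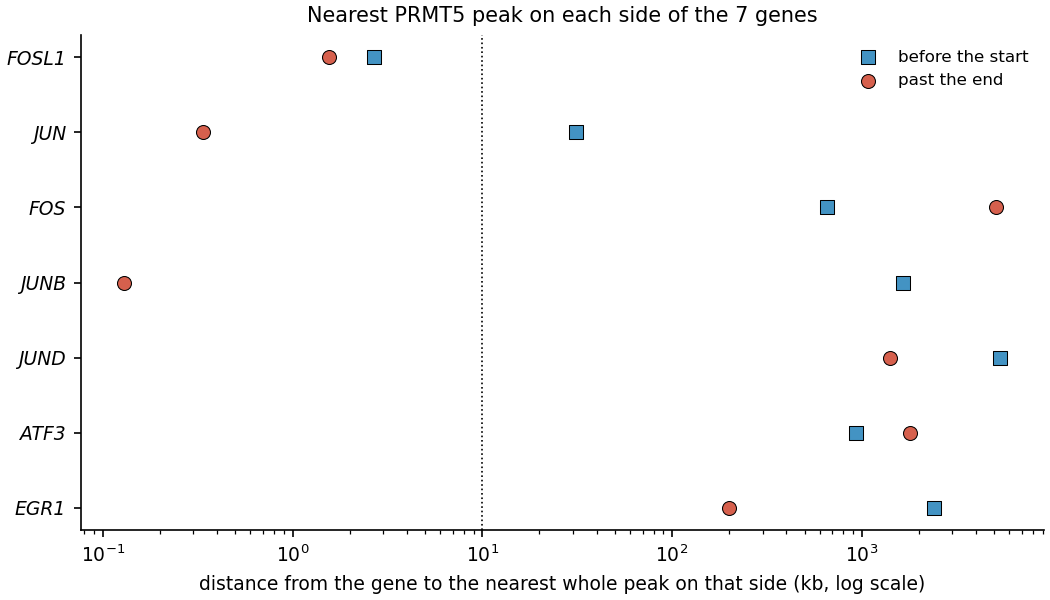
Distance from each of the 7 genes to the nearest peak that lies wholly before its start (squares) or wholly past its end (circles), in kb on a log scale, with a dotted line at 10 kb. FOSL1, JUN and JUNB have a peak past the end at 1.55, 0.339 and 0.130 kb, and for the other 4 genes the nearest peak on either side is at least 199 kb away.

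No peak lay near the 10 kb limit of the rule. The farthest of the 7 peaks was the one 2701 bp before FOSL1. The nearest peak outside 10 kb lay 15.2 kb before FOSL1, at 65683206 to 65683430, with a width of 225 bp and a score of 19.4. Around JUN the nearest such peaks lay 24974 bp past the end, scoring 4.59, and 31106 bp before the start, scoring 15.1. Around JUNB the nearest lay 362 kb past the end, with a score of 5.91.

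For comparison, chromosomes 1 to 22 and X were divided into 129429 windows of 23457 bp, the median search length of the 7 genes. A peak touched 1.58% of these windows, against 3 of the 7 genes. Windows with 2 or more peaks made up 0.240% and those with 4 or more 0.0417%, whereas JUN had 2 peaks and FOSL1 had 4. The FOSL1 search length, 28438 bp, was longer than these windows. Peaks were counted singly here, and with those within 1 kb merged JUN had 1 and FOSL1 had 2. The windows were not recounted after merging. These windows include stretches with few genes and unassembled sequence, and the share of all genes with a peak was not determined. The genes were proposed with results of this list in view, so these shares stand as a description beside the counts and are no test.

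The position of the peaks relative to the genes was uneven. Of the 7 peaks, 2 lay over a gene end, 4 lay past one, 1 lay before a start, and none lay inside a gene or over a start. JUNB is short, and the peak past its end lay 1945 bp from its start. The FOSL1 peak before the start lay farther from the start of FOSL1, at 2701 bp. Of the summed width of the 7 peaks, 4425 bp, 3593 bp (81.2%) lay past gene ends, 676 bp in genes and 156 bp before starts. Here genes means the 7 of the rule alone. Of the part past gene ends, 2226 bp lay past FOSL1, where the overlap with CCDC85B was not determined. Within 1 kb of the genes there were 4 peaks, all over or past an end, and within 2 kb there were 5, again all over or past an end. Wider reaches added peaks before starts: 6 of 8 lay over or past an end and 2 before a start within 20 kb, and 7 of 10 and 3 within 50 kb. The same division was not made for other genes, so it was not tested whether peaks in this list generally favour gene ends.

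The 7 peaks were wide compared with the list, while by score they ranked from near its bottom to near its top. Their widths ran from 156 to 1539 bp with a median of 448 bp, and 6 of 7 exceeded the list's median of 210 bp. Their scores ran from 2.97 to 43.6 with a median of 9.76, against 7.80 for the list. Scores above the list's median were found for 5 of the 7, and above its upper quartile for 2, the peak over the FOSL1 end and the one past the JUN end. The JUN peak over the gene end shows that width and score need not go together here: it was wider than 96.4% of the list and scored above 48.7% of it.

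**Figure D3:**
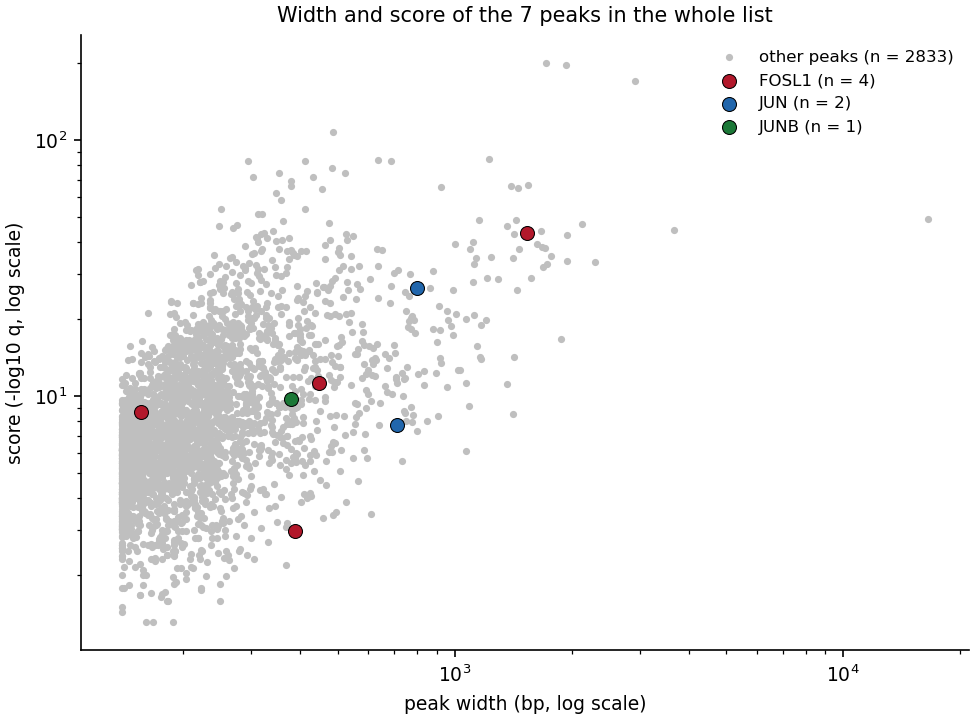
Width in bp against score (−log10 q) of every peak in the list, both on log scales. Grey points are the 2833 other peaks, and coloured points are the peaks of FOSL1 (red), JUN (blue) and JUNB (green). The FOSL1 peak at 1539 bp and 43.6 lies among the widest of the list, and the FOSL1 peak at 389 bp and 2.97 lies low for its width.

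Several of the peaks lay close to each other. Another peak lay within 1 kb for 5 of the 7, the 3 at the FOSL1 end and the pair at the JUN end, against 24.3% of all peaks in the list. With peaks less than 1 kb apart counted as 1 region, the 7 became 4, namely 2 at FOSL1, 1 at JUN and 1 at JUNB. Of these 4, 1 lay before the FOSL1 start and the others lay at gene ends. Whether each group is a single region that the caller divided was not tested. FOSL1 also lies in a 1 Mb window rich in peaks, 65 to 66 Mb on chromosome 11, where its 4 were among 13 with a median score of 9.29. The corresponding windows held 6 peaks for JUN, 3 for FOS and 1 for JUNB.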

How the data were processed

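The deposited peak list of the PRMT5 library, per the file, gives chromosome, start, end, name and a value taken as the −log10 of the q-value. That unit was inferred from the values: the file has no header, and its smallest value, 1.3028, lies just above 1.30103, the −log10 of 0.05. Per the submitters' processing notes, CASAVA 1.4, Bowtie2, MACS2 and hg19 were used, with no roles or settings. The sources used here do not say whether the input served as control.

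Gene spans on hg19 were those stated in the rule that defines the set, and BED starts were raised by 1. The genes and the list of alternatives were chosen with earlier results of these data known, so no p-value was computed. All 7 genes are named, with every peak within 10 kb and the closest peak of each gene without one. Beyond 10 kb, the nearest peak is given on the start side of FOSL1, on both sides of JUN and on the end side of JUNB. For these 3 genes the next protein-coding gene on the end side is named. Names of neighbours and promoter sequences came from RefSeq on GRCh38.p14, where 6 of the 7 genes, all but FOSL1, matched the promoter table. Chromosome lengths for the windows came from GenomeInfoDb 1.38.1. The code that measures distances and counts windows was checked on simulated peaks of known position, which is no test of where the real peaks lie. Scripts ran in Python 3.11.15 (pandas 2.3.3, numpy 2.4.6, matplotlib 3.10.9, scipy 1.17.1). Alternatives varied the distance, the score threshold, the use of peak centres, merging and the windows.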

Additional observations from a re-analysis of the deposited data

How the results depend on the processing

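FOSL1, JUN and JUNB were the genes with a peak at distances of 2, 5, 20 and 50 kb, with peak centres and after merging. The number of peaks, 7 at 10 kb, was 5 at 2 kb and 10 at 50 kb. It was 2 in the highest-scoring 25% of the list, 1 each at FOSL1 and JUN, and 4 after merging peaks within 1 kb. Without FOSL1, an alternative chosen after seeing the data, 3 peaks were left, all 3 over or past a gene end, with a median width of 711 bp. At 20 kb the median score was 10.5 and the median width 418.5 bp. The share of windows with a peak was 1.49% without the 1 Mb bins of 10 or more peaks. Each of these settings counts other peaks, genes or windows by construction, and no further cause was tested. The other immediate early genes on the planned list were not examined, since their hg19 positions were not used here. The read depth is unknown. No paired analysis was possible because only 1 library per group exists.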
